A study of Danio rerio with 6 samples.

Results

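Heat shock proteins and their DnaJ partners were examined in zebrafish larvae in which the cells that form myelin were targeted for ablation. The genes were every gene of the array's platform table whose only symbol starts as an hsp, dnaj or hsf symbol does, with 1 transcript cluster (a set of probes that reads 1 transcript) standing for each gene. They numbered 83 genes of 19260, and 92 transcript clusters carried their symbols. Of the 83 genes, 48 were DnaJ genes and 35 were heat shock protein, heat shock factor or closely named genes. The symbol rule did not use the measured levels, but the genes were taken up with earlier results of these arrays known.

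Chaperones bind unfolded stretches of proteins and let them fold or be degraded. The Hsp70 proteins do this in cycles of ATP hydrolysis that DnaJ proteins start, Hsp90 completes the folding of kinases and hormone receptors, and small heat shock proteins hold unfolded proteins until Hsp70 takes them over. Heat, oxidants and toxic compounds activate heat shock factor 1, which switches on the inducible cytosolic members, whereas unfolded proteins in the endoplasmic reticulum (ER) switch on a separate set led by hspa5 (BiP) and hsp90b1 (GRP94).

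Larvae of the line Tg(mbp:nfsB-egfp) were taken at 10 dpf (days post fertilization), and the RNA of the whole animals was hybridized to 6 Affymetrix zebrafish gene arrays. In the metronidazole group, 3 arrays held RNA of larvae kept from 5 dpf for 5 days in 5 mM metronidazole with 0.2% DMSO in the dark. In the control group, 3 arrays held RNA of larvae of the same transgenic line kept in 0.2% DMSO. Each array read the pooled RNA of 5 larvae, and the larvae came from 3 batches. The labels do not state which arrays share a batch. Arrays of the same replicate number were taken as the same batch in all results below. Both groups carried the transgene, in which the myelin basic protein (mbp) promoter drives bacterial nitroreductase fused to EGFP in oligodendrocyte lineage cells, and nitroreductase turns metronidazole into a toxic product in those cells. No array of wild-type larvae in metronidazole was analysed here, so any action of the drug outside those cells cannot be told apart from the ablation. Because whole larvae were used, fewer cells of a type and less RNA per cell cannot be told apart either.

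The values were log2 signals, and all differences below are the mean of the metronidazole arrays minus the mean of the control arrays on that scale. The median signal was 5.1 to 5.14 on every array, and 72 of the 83 genes lay above the median transcript cluster. Metronidazole replicate 1 and control replicate 3 stood apart from the other arrays. Of all genes, 23.3% had their highest signal in metronidazole replicate 1 and 19.2% in control replicate 3, and where the highest array exceeded the next by at least 0.5 (9.1% of genes) it was 1 of these 2 arrays in most cases, with 827 and 530 of 1753 genes. Differences without 1 of these arrays are therefore given beside many results below. Of the markers listed for the tissues of whole larvae, 16 of 17 for muscle, 8 of 9 for neurons, 9 of 9 for lens and 9 of 11 for liver were measured. Of 7 oligodendrocyte and Schwann cell markers 4 were measured, with a median difference of -0.05. All 19 measured markers of exocrine pancreas had negative differences, where 46.5% of all genes did, with a median of -0.63, and of -0.70 without metronidazole replicate 1. The 11 enterocyte markers and the 6 of skin and ionocytes were also negative, with medians of -1.30 and -0.85, but these rested in part on metronidazole replicate 1: without it 10 of 11 and 4 of 6 were negative, with medians of -0.79 and -0.39.

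Of the 83 chaperone genes, 0 passed an adjusted p of 0.05 in limma, and the lowest adjusted p among them was 0.952. The background was the same: 0 of 19260 genes passed (0.0%), and the lowest adjusted p of any gene was 0.565. At an unadjusted p under 0.05, 1 chaperone gene was lower (dnajc22) and 0 were higher, against 4.27% of all genes lower and 1.68% higher. The metronidazole and control arrays did not overlap for 2 genes that were lower, dnajc22 and hsp90b1, and for 2 that were higher, hspb9 and dnajc12. Of all genes, 5.73% were lower and 5.14% higher in this way, so these counts do not exceed the background. The median difference of the 83 genes was 0.03, against 0.02 for all genes, with 46 differences above 0 and 37 below. Only hspb9 differed by 1 or more, which is 1.2% of the 83 genes against 2.24% of all genes. The 95% interval of the difference lay within 1 in either direction for 63 of the 83 genes (75.9%, against 81.9% of all genes), and the number of arrays limits what can be said of the rest.

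**Figure D1:**
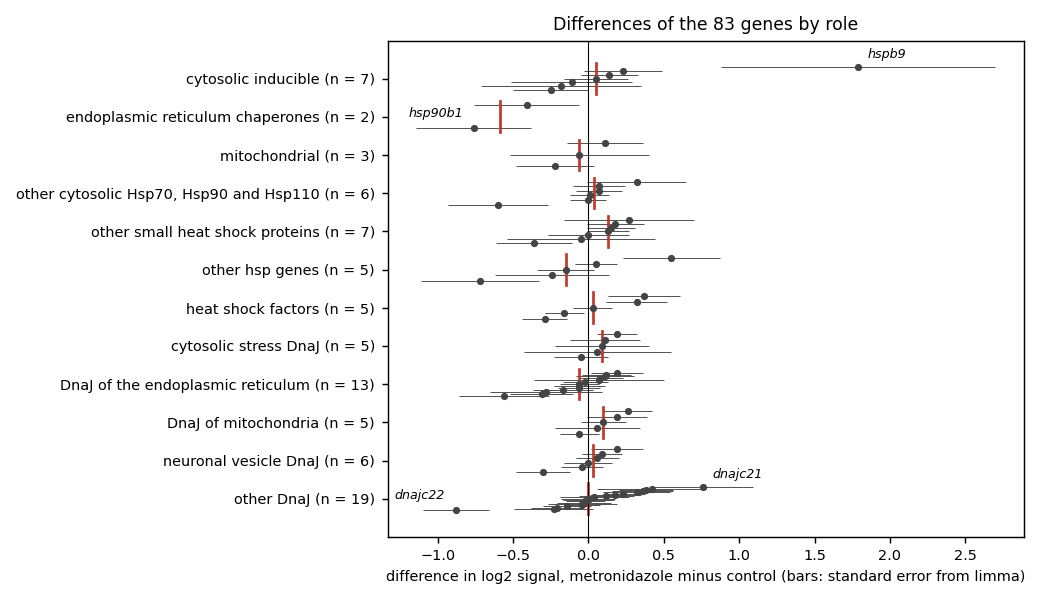
Difference in log2 signal (metronidazole minus control, horizontal axis) of the 83 chaperone genes, 1 point per gene with its standard error from limma, grouped by role down the page, with the median of each role as a short upright line. Most points lie close to 0, hspb9 stands at 1.79, dnajc22 at -0.88, and the ER chaperones have the lowest median of the roles (-0.59).

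The inducible cytosolic chaperones showed no common direction. The 7 genes taken for this role were hspb1, hspb9, hspb11, hspa1b, hsph1, hsp90aa1.1 and hsp90aa1.2, of which 4 differences were above 0 and 3 below, with a median of 0.05. Among them hspb11 was counted by its symbol and may not be a heat-induced chaperone, as described below. Relative to each gene's control mean, the median of the 7 was 0.49, -0.16 and -0.17 in metronidazole replicates 1, 2 and 3, against -0.01, -0.12 and 0.13 in control replicates 1, 2 and 3. Metronidazole replicate 1 thus stood above the other 5 arrays, and without it the median difference was -0.04. The highest signal of each of the 7 genes fell in metronidazole replicate 1 (4 genes, hspb11 among them) or in control replicate 3 (3 genes), and in none of the other 4 arrays. The shares of all genes highest in these 2 arrays were 23.3% and 19.2%.

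hspb9, a small heat shock protein, had signals of 8.99, 5.76 and 5.36 in metronidazole replicates 1, 2 and 3, against 5.35, 4.69 and 4.70 in control replicates 1, 2 and 3. All 3 metronidazole arrays lay above all 3 control arrays, though metronidazole replicate 3 and control replicate 1 differed by only 0.01 as rounded. The difference was 1.79 ± 0.91 (SE, limma adjusted p = 0.952), a fold of 3.46. Within the batches it was 3.64, 1.07 and 0.65, positive in all 3, and without metronidazole replicate 1 it was 0.65. With the batch as a block in limma the adjusted p was 0.662. A dimmer transcript cluster of hspb9 read 4.70, 4.09 and 3.85 in metronidazole arrays and 3.63, 3.99 and 3.61 in control arrays, a difference of 0.47. Its highest array was also metronidazole replicate 1, but its groups overlapped.

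The other small heat shock proteins of the cytosol showed smaller differences. hspb1 (Hsp27 in mammals), which caps actin and holds unfolded proteins, gave 8.31, 7.67 and 7.89 in metronidazole arrays and 7.79, 8.36 and 8.48 in control arrays, a difference of -0.25 ± 0.25 (SE). The groups overlapped, with metronidazole replicate 1 among the higher values and control replicate 1 among the lower. hspb9l, which carries hspb11 as an older symbol, gave 7.66, 6.28 and 5.93 in metronidazole arrays and 6.56, 6.33 and 6.16 in control arrays. Metronidazole replicate 1 was again the highest array, and the difference of 0.27 became -0.24 without it. hspb9l was 1 of 7 genes taken as other small heat shock proteins, a role that leaves out hspb1, hspb9 and hspb11. Of these 7, 5 differences were above 0 and 2 below, with a median of 0.13, and hspb7 had the lowest p (-0.36 ± 0.25). For hspb11 itself the difference was 0.23 ± 0.26 with overlapping groups, and the human gene of that symbol encodes an intraflagellar transport protein rather than a heat-induced chaperone.

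The cytosolic Hsp90 alpha pair was high in control replicate 3, and hsp90aa1.2 was also high in metronidazole replicate 1. hsp90aa1.1, needed for myosin folding in zebrafish muscle, had 7.99, 8.58 and 7.88 in metronidazole arrays, against 7.86, 7.79 and 9.14 in control arrays. hsp90aa1.2, its neighbour on the genome, had 9.45, 8.43 and 7.81 in metronidazole arrays and 8.42, 8.14 and 9.69 in control arrays. The groups overlapped for both, and the differences of -0.11 ± 0.40 and -0.18 ± 0.53 (SE) became 0.33 and 0.29 without control replicate 3. Without metronidazole replicate 1 they were -0.03 and -0.63. Markers of skeletal muscle, where hsp90aa1.1 is made, had a median difference of 0.00 over 16 measured genes (0.15 without control replicate 3), and their mean level was 11.03 in control replicate 3, against 10.40 and 10.99 in the other control arrays. In contrast, the constitutive Hsp90 beta gene hsp90ab1 was nearly level over the arrays, at 12.46, 12.29 and 12.30 in metronidazole arrays and 12.46, 12.24 and 12.33 in control arrays.

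The heat-inducible hsp70 genes could be read only from transcript clusters that carry several symbols, which the symbol rule leaves out. The brighter of 2 clusters shared by hsp70l and hsp70.3 gave 9.50, 6.09 and 5.88 in metronidazole arrays, against 5.98, 5.80 and 7.60 in control arrays. Metronidazole replicate 1 and control replicate 3 were the highest arrays of their groups, and the other 4 arrays lay within 5.80 to 6.09. The difference was 0.70 ± 1.01 (SE, limma adjusted p = 0.967), and without metronidazole replicate 1 it was -0.47. The dimmer cluster of the same genes and the cluster shared by hsp70.1, hsp70.2, hsp70.3 and hsp70l were also highest in metronidazole replicate 1, at 5.97 and 4.81, with differences of 0.33 and 0.51 that became -0.10 and -0.14 without that array. Outside metronidazole replicate 1, the cluster that includes hsp70.1 lay at only 2.55 to 3.16, below the median signal of every array. All these hsp70 clusters share gene symbols, so they are not separate evidence.

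Among partners of inducible Hsp70, hsph1 (Hsp110, a nucleotide exchange factor) had 5.88, 5.23 and 5.22 in metronidazole arrays and 5.38, 5.27 and 5.52 in control arrays. hspa1b, the Hsp70 gene taken as inducible, had 4.77, 4.20 and 4.28 in metronidazole arrays and 4.44, 4.32 and 4.09 in control arrays. The difference of hspa1b was 0.14 ± 0.19, with overlapping groups and a signal below the median transcript cluster. hspbp1, which releases nucleotide from Hsp70, had 7.37, 6.66 and 6.10 in metronidazole arrays, against 6.33, 5.92 and 6.24 in control arrays. Its groups overlapped through metronidazole replicate 3, and the difference was 0.55 ± 0.32 (SE, limma adjusted p = 0.952), or 0.22 without metronidazole replicate 1. Of the constitutive Hsp70 genes, hspa8 (Hsc70) was level in its brightest cluster, with a range over the 6 arrays of 12.34 to 12.45 and a difference of 0.00 ± 0.12. A dimmer hspa8 cluster had 10.62, 10.69 and 10.63 in metronidazole arrays, against 10.48, 10.51 and 10.56 in control arrays. Its groups did not overlap, and the difference was 0.13 (limma unadjusted p = 0.303). hspa4l, an Hsp110 family member, had 6.50, 7.60 and 6.62 in metronidazole arrays and 7.14, 7.69 and 7.68 in control arrays, lower within each of the 3 batches (-0.64, -0.08 and -1.06), with a difference of -0.60 ± 0.33 (limma adjusted p = 0.952, or 0.695 with the batch as a block), and -0.39 without metronidazole replicate 1. hspa12b, an atypical Hsp70 of endothelial cells in mammals, differed by -0.72 ± 0.39, which was -0.27 without metronidazole replicate 1, the array in which it was lowest (4.87).

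**Figure D2:**
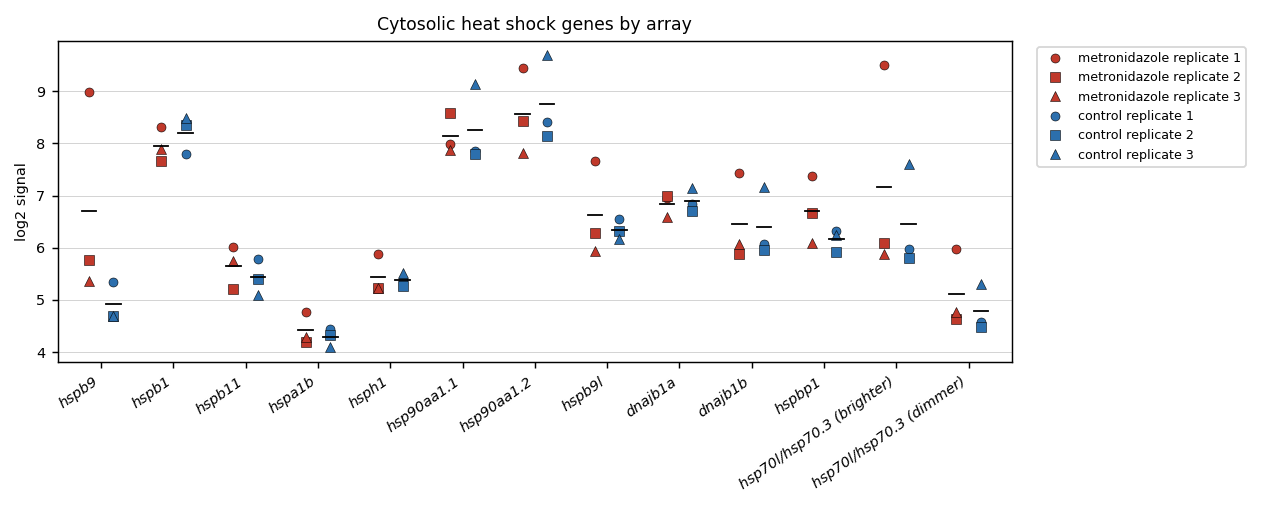
Log2 signal (vertical axis) of cytosolic heat shock genes on each array, with metronidazole arrays (red) left of control arrays (blue), marker shapes for the replicate number and bars for group means. Metronidazole replicate 1 (red circle) is far above the other arrays for hspb9 (8.99) and the brighter hsp70l/hsp70.3 cluster (9.50), and control replicate 3 (blue triangle) is the highest control array for that cluster (7.60) and for both hsp90aa1 genes (9.14 and 9.69).

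The 2 ER chaperones had the lowest median difference of any role (-0.59), and this rested mainly on control replicate 3. hsp90b1, the Hsp90 of the ER, had 8.47, 8.23 and 8.17 in metronidazole arrays, against 8.63, 8.55 and 9.98 in control arrays. All 3 metronidazole arrays lay below all 3 control arrays, by 0.08 at the closest as rounded, and control replicate 3 stood 1.35 above the next array. The difference was -0.76 ± 0.38 (SE, limma adjusted p = 0.952), a fold of 0.589, and was -0.17, -0.31 and -1.81 within the batches. Without control replicate 3 it was -0.30, and without metronidazole replicate 1 it was -0.85.

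hspa5, the Hsp70 of the ER, which also holds its stress sensors inactive, had 10.04, 9.46 and 8.97 in metronidazole arrays, against 9.54, 9.66 and 10.48 in control arrays. The groups overlapped, since metronidazole replicate 1 was above 2 of the 3 control arrays. The difference was -0.41 ± 0.35 (SE, limma adjusted p = 0.953), with 0.49, -0.20 and -1.51 within the batches, and -0.11 without control replicate 3. The median of both ER chaperones was -0.21 without control replicate 3. With each array left out in turn, it ran over -0.78 to -0.21.

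Several DnaJ genes of the ER showed the same arrays. dnajb11 (ERdj3), which hands unfolded proteins to BiP, had 6.83, 6.96 and 6.52 in metronidazole arrays and 6.83, 7.18 and 7.99 in control arrays. Control replicate 3 was 0.80 above the next array. The difference of -0.56 ± 0.30 (SE, limma adjusted p = 0.952) was -0.24 without it and -0.59 without metronidazole replicate 1. dnajc3b, a copy of the BiP partner p58IPK, had 6.88, 6.54 and 6.94 in metronidazole arrays, against 6.45, 6.82 and 7.93 in control arrays. Its difference of -0.28 became 0.15 without control replicate 3 and -0.33 without metronidazole replicate 1. For its copy dnajc3a the difference was -0.31 ± 0.21, and for dnajc10 (ERdj5, a disulfide reductase) it was -0.17 ± 0.20. These became -0.13 and -0.01 without control replicate 3, and -0.41 and -0.10 without metronidazole replicate 1. dnajb9b, a copy of the BiP cofactor ERdj4, was instead highest in metronidazole replicate 1, at 7.01 with 5.87 and 5.27 in the other metronidazole arrays, against 6.25, 5.65 and 6.05 in control arrays, and its difference of 0.07 became -0.42 without that array. Over all 13 DnaJ genes of the ER, 8 differences were below 0 and 5 above, and the median was -0.06. Control replicate 3 held the highest signal of 7 of the 13, against 19.2% of all genes. Without that array the median was 0.06.

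Other genes of the ER unfolded protein response were taken as a list beside the chaperones. Of 45 measured genes (49 listed), 37 were below 0 and 8 above, with a median difference of -0.17, where 46.5% of all genes were below 0. In limma, 2 genes lower and 0 higher passed an unadjusted p of 0.05, where the background was 4.27% lower and 1.68% higher. The 2 were pdia2, a disulfide isomerase of the pancreas in mammals (-1.14 ± 0.28), and edem2, which marks misfolded glycoproteins for degradation (-0.37 ± 0.12). pdia2 was also counted among the 19 measured exocrine pancreas markers, so the lists are not separate for this gene. The gene with the next lowest p was ppp1r15b, a subunit of the phosphatase that restores translation, at 0.32 ± 0.14. Control replicate 3 held the highest signal of 24 of the 45 genes, among them calr3b (9.91, against 8.04 in the next control array), pdia4 (9.20) and manf (8.08), and metronidazole replicate 1 that of 13, among them ppp1r15a (10.63) and ddit3 (9.15). These 5 examples were picked for their highest array after the values were seen. Of all genes, 19.2% were highest in control replicate 3 and 23.3% in metronidazole replicate 1. The mean level of the list was 8.10, 7.99 and 7.89 in metronidazole arrays and 8.03, 8.01 and 8.54 in control arrays, so that control replicate 3 alone stood apart. Without it, 30 genes were below 0 and 15 above, with a median difference of -0.05. Without metronidazole replicate 1, 39 were below 0 and 6 above, with a median of -0.18. Both settings were added after the data were seen.

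Of the secretory tissues, exocrine pancreas had mostly lower markers in metronidazole arrays, whereas the groups overlapped for every measured liver marker. No marker of either tissue passed the adjusted p threshold in limma. The mean level of the exocrine pancreas markers was 10.01, 10.43 and 9.99 in metronidazole arrays, against 10.85, 10.98 and 10.86 in control arrays, with 16 of 19 genes lower without overlap between the groups, against 5.73% of all genes. Control replicate 3 held the highest signal of 4 of the 19 genes, against 19.2% of all genes. Liver markers had 8 of 9 highest signals in control replicate 3, against 19.2% of all genes. The mean level of the liver markers was 7.33, 8.61 and 8.56 in metronidazole arrays, against 7.97, 8.79 and 9.35 in control arrays. Their median difference of -0.55 was -0.16 without metronidazole replicate 1 and -0.32 without control replicate 3. The part of either tissue in the ER chaperone values was not tested.

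**Figure D3:**
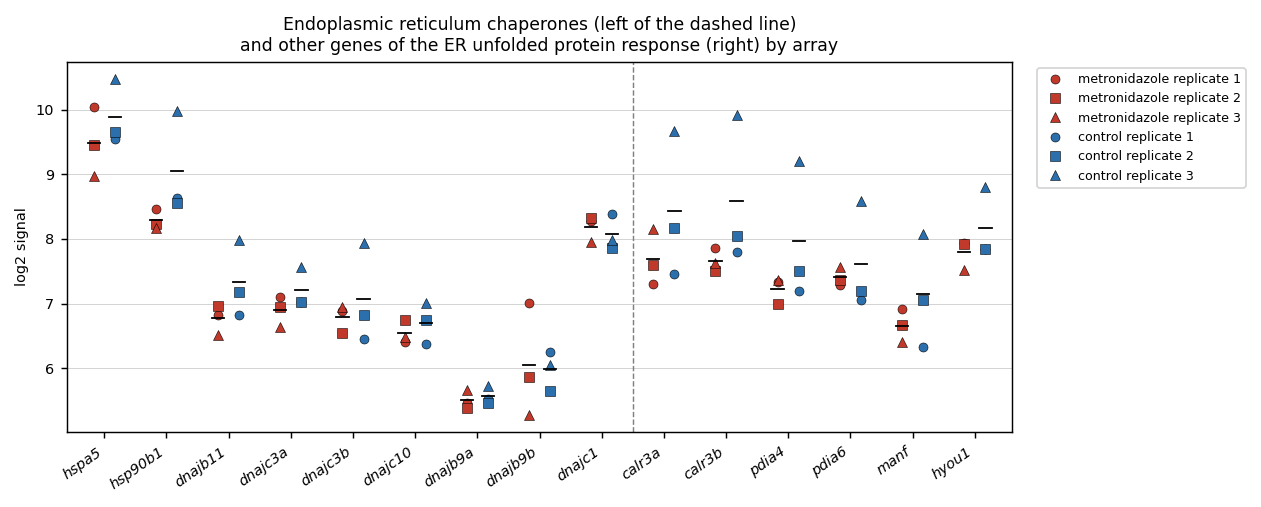
Log2 signal (vertical axis) of ER chaperones and ER DnaJ genes (left of the dashed line) and of other unfolded protein response genes (right) on each array, with metronidazole arrays (red) left of control arrays (blue), marker shapes for the replicate number and bars for group means. Control replicate 3 (blue triangle) is the highest array for hspa5 (10.48), hsp90b1 (9.98) and dnajb11 (7.99) and for calr3b (9.91), while the remaining control arrays lie near the metronidazole arrays. The genes on the right are a selection from the 45 measured, and all of those drawn are highest in control replicate 3. That array was highest for 24 of the 45, and metronidazole replicate 1 for 13, none of which is drawn.

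The DnaJ genes as a whole centred on 0. Of 48 genes, 26 differences were above 0 and 22 below, and the median was 0.05, with medians of 0.02, 0.17 and -0.11 within the batches. The spread over the arrays was smaller than among the other chaperone genes: the highest and lowest array were at least 1 apart for 8 of 48 DnaJ genes (16.7%) and for 14 of the 35 others (40.0%), against 22.7% of all genes. This is a description of the 2 lists and was not tested.

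dnajc22 was the chaperone gene with the lowest p. It encodes a membrane DnaJ protein whose counterpart in flies (wurst) takes part in clathrin-mediated endocytosis. Its signals were 5.52, 6.13 and 5.86 in metronidazole arrays, against 6.57, 7.05 and 6.54 in control arrays. All 3 metronidazole arrays lay below all 3 control arrays, and neither metronidazole replicate 1 nor control replicate 3 set the gap alone. The difference was -0.88 ± 0.22 (SE, limma adjusted p = 0.952), a fold of 0.543, with a 95% interval of -1.41 to -0.36. It was -1.05, -0.92 and -0.67 within the batches, -0.72 without metronidazole replicate 1 and -0.97 without control replicate 3. With the batch as a block in limma the adjusted p was 0.493, so it did not pass either test across all genes.

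The DnaJ gene with the largest positive difference was dnajc21, whose yeast counterpart acts in the maturation of ribosomal subunits. It had 6.81, 7.40 and 6.59 in metronidazole arrays, against 6.66, 5.58 and 6.26 in control arrays, and overlapped only in that control replicate 1 was above metronidazole replicate 3. The difference was 0.76 ± 0.33 (SE, limma adjusted p = 0.952), with 0.15, 1.82 and 0.32 within the batches and 0.47 without control replicate 2. dnajc24, which works in the synthesis of diphthamide on a translation factor, differed by 0.38 ± 0.18 and by 0.36, 0.39 and 0.39 within the batches. dnajb2 (HSJ1), a neuronal DnaJ that passes clients to the proteasome, had 8.51, 7.53 and 7.45 in metronidazole arrays and 7.96, 7.02 and 7.24 in control arrays, higher in each batch by 0.55, 0.51 and 0.21. Its difference of 0.42 ± 0.36 was 0.08 without metronidazole replicate 1. dnajc12, which binds aromatic amino acid hydroxylases in humans, had 4.12, 4.01 and 4.12 in metronidazole arrays, against 3.74, 3.89 and 3.94 in control arrays. Its groups did not overlap, but the signal was below the median transcript cluster and the difference only 0.23 ± 0.13.

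With the batch as a block, 3 of the 83 genes were lower at an unadjusted p under 0.05 (dnajc22, hspa12b and hspa4l) and 3 higher (hspb9, dnajb2 and dnajc24), against 6.9% and 2.38% of all genes. The adjusted p was 0.493 or more for every one of the 83. The sign was the same in all 3 batches for 10 genes that were lower and 10 that were higher, 12% each, against 15.8% of all genes in each direction.

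Among the 5 cytosolic DnaJ genes that answer heat with Hsp70, dnajb1b and dnaja1 were high in the 2 arrays that stood apart. dnajb1b, a copy of the Hsp40 that works with inducible Hsp70, had 7.43, 5.88 and 6.07 in metronidazole arrays, against 6.08, 5.96 and 7.17 in control arrays. dnaja1, another partner of Hsp70, had 7.78, 7.35 and 7.25 in metronidazole arrays and 7.07, 6.98 and 8.05 in control arrays. In both genes metronidazole replicate 1 and control replicate 3 were the highest arrays of their groups, and the differences were 0.06 ± 0.49 and 0.09 ± 0.31. For dnajb1b the difference was -0.43 without metronidazole replicate 1 and 0.44 without control replicate 3, and for dnaja1 it was -0.07 and 0.43. In contrast, dnajb4 and dnajb5 were highest in metronidazole replicate 2. dnajb1a (-0.05 ± 0.18), dnajb4 (0.19 ± 0.13) and dnajb5 (0.11 ± 0.23) overlapped between the groups.

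The DnaJ genes taken by symbol for synaptic vesicles and clathrin uncoating had a median difference of 0.03 over 6 genes. They include the cysteine string protein copies dnajc5aa and dnajc5ab and the auxilin gene dnajc6. For dnajc5b, dnajc5ga and dnajc5gb the symbol alone set the role, and dnajc5b lay below the median transcript cluster. dnajc5ab gave 0.19 ± 0.17, dnajc5aa 0.09 ± 0.13 and dnajc6 0.06 ± 0.14, while dnajc5gb gave -0.30 ± 0.18. The range over the 6 arrays was under 1 for all 6. Markers of neurons had a median difference of 0.11 over 8 measured genes.

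Mitochondrial chaperones varied between the arrays of both groups. hspd1 (Hsp60), which folds proteins imported into mitochondria, had 6.87, 7.90 and 7.10 in metronidazole arrays, against 6.50, 7.42 and 8.15 in control arrays. Its partner and genome neighbour hspe1 (Hsp10) had 5.57, 6.24 and 5.97 in metronidazole arrays and 5.73, 6.14 and 6.56 in control arrays. The groups overlapped for both genes, and the differences were -0.06 ± 0.46 and -0.22 ± 0.26, or 0.33 and -0.01 without control replicate 3. For hspa9 (mortalin, the mitochondrial Hsp70) the difference was 0.11 ± 0.25, or -0.06 without metronidazole replicate 1, and the 5 mitochondrial DnaJ genes had a median of 0.10, with 0.26 ± 0.16 for dnaja3b and 0.19 ± 0.20 for dnaja3a.

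The transcription factors that switch these genes on showed no passing difference. hsf1, the main regulator of the heat shock response, had 9.33, 9.11 and 8.96 in metronidazole arrays, against 9.19, 8.58 and 8.68 in control arrays. It was higher within all 3 batches (0.14, 0.54 and 0.28), but the groups overlapped, and the difference was 0.32 ± 0.20 (SE, limma adjusted p = 0.952). hsf2, which works with hsf1, was lower in all 3 batches at -0.29 ± 0.15, or -0.18 without metronidazole replicate 1. hsf4, a factor of the lens, gave 0.37 ± 0.24, with 0.18, 0.98 and -0.04 within the batches, and 0.12 without control replicate 2, in which it was lowest (4.99). Lens markers had a median difference of 0.37 over 9 genes. Their mean level was also lowest in control replicate 2, at 8.82, against 9.12 and 9.26 in control replicates 1 and 3. The part of the lens in the hsf4 values was not tested. hsf5, a germ cell factor, lay near the floor of the signals under 4 on every array, as did hsf2bp, which binds a factor and is not one.

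**Figure D4:**
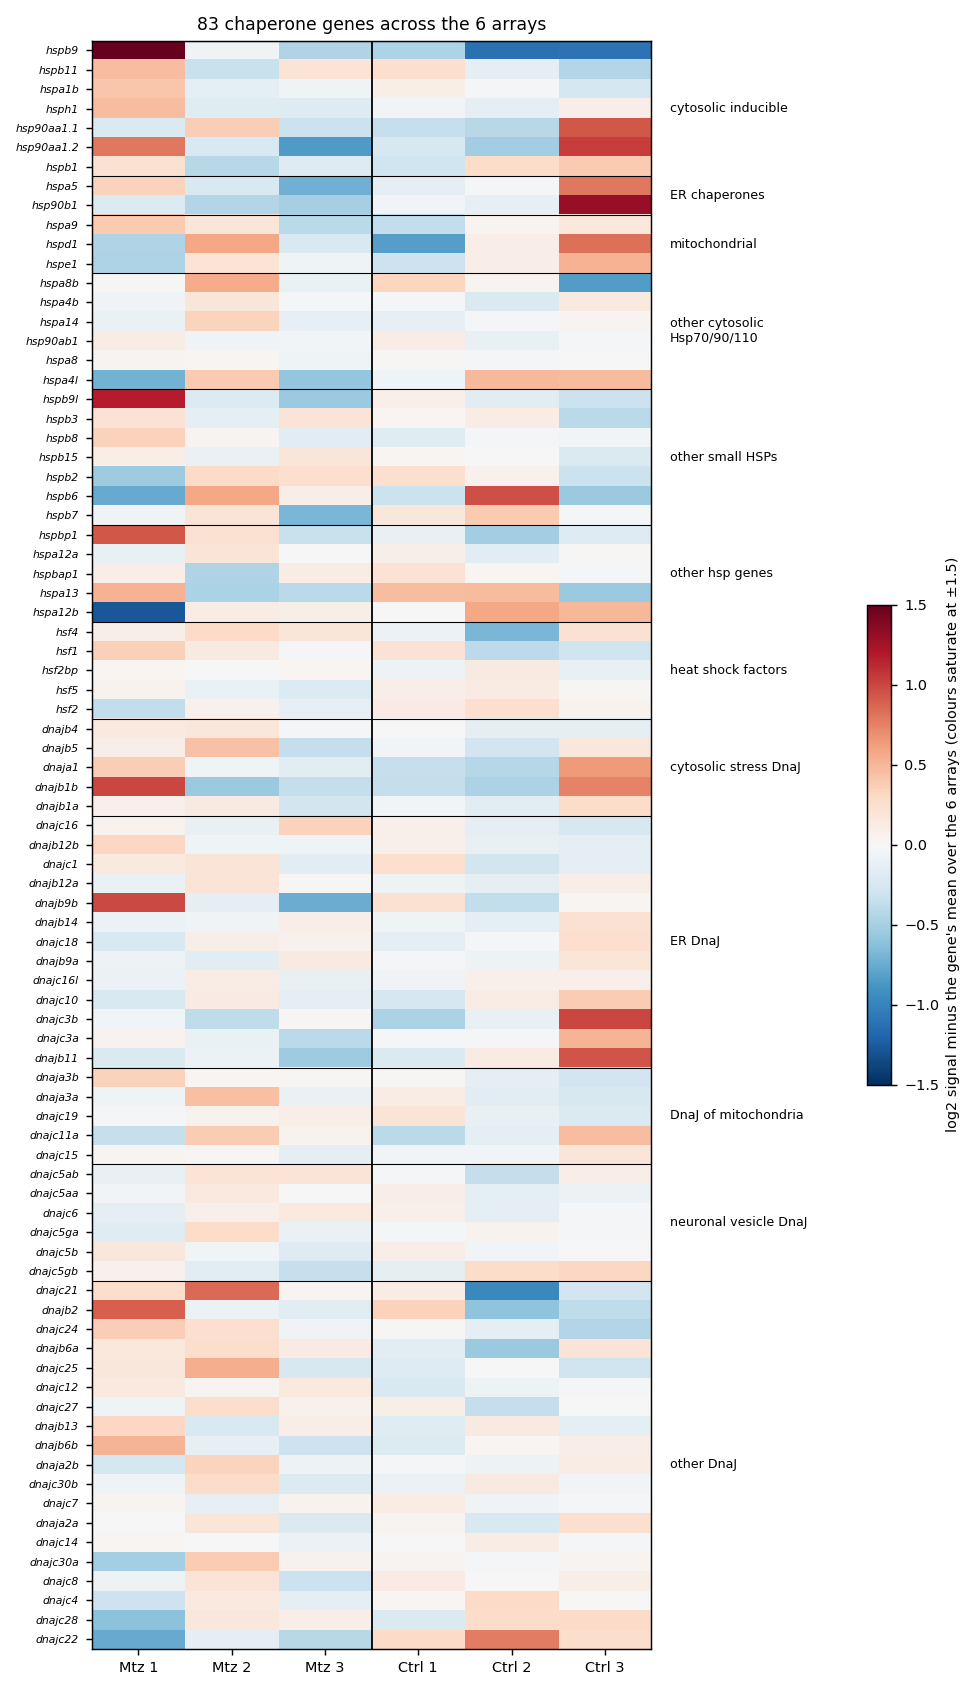
Log2 signal of the 83 chaperone genes on the 6 arrays (columns, metronidazole left of control), coloured by the deviation from the gene's mean over the 6 arrays, with colours saturating at 1.5 in either direction and rows grouped by role. The columns Mtz 1 and Ctrl 3 hold most of the deep red cells of the cytosolic inducible and ER rows, and no role is red in every row of all 3 arrays of 1 group.

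The array that held a gene's highest signal was counted for each role, as a description with no test. Of the 83 genes, 21 were highest in metronidazole replicate 1, 22 in replicate 2 and 4 in replicate 3, against 5, 10 and 21 in control replicates 1, 2 and 3. As shares these were 25.3%, 26.5% and 4.82% in the metronidazole arrays and 6.02%, 12% and 25.3% in the control arrays, against 23.3%, 15.2% and 13.6% and 16.6%, 12% and 19.2% for all genes. The DnaJ genes were most often highest in metronidazole replicate 2 (16 of 48) and control replicate 3 (14 of 48). The highest array exceeded the next by 0.5 or more for 10 of the 83 genes (12%, against 9.1% of all genes). Of these 10, 5 were highest in metronidazole replicate 1 (hspb9, hspb9l, dnajb9b, hspbp1 and dnajb2), 4 in control replicate 3 (hsp90b1, dnajc3b, dnajb11 and hsp90aa1.1) and 1 in metronidazole replicate 2 (dnajc21).

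**Figure D5:**
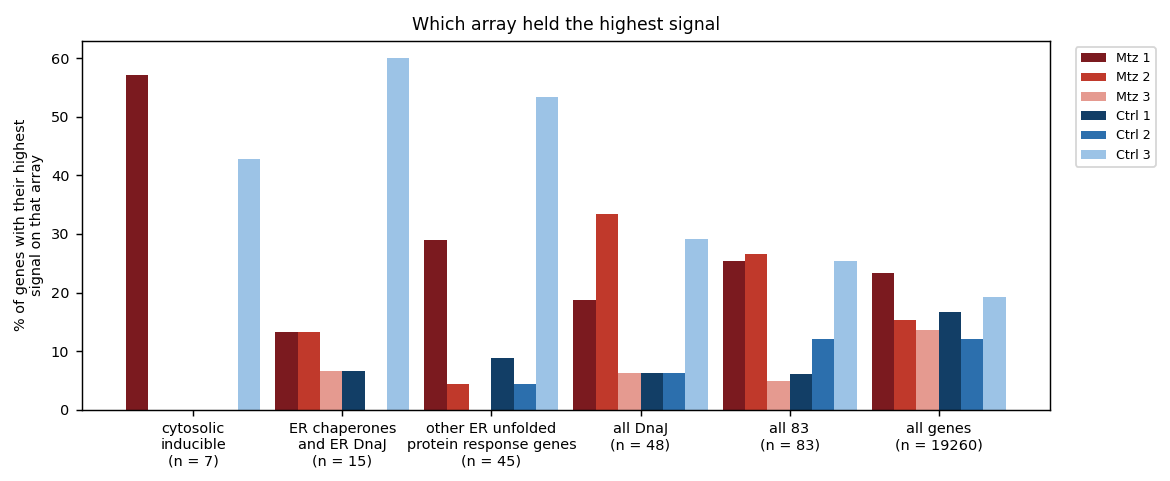
Share of genes (vertical axis, percent) whose highest signal fell on each of the 6 arrays, for groups of chaperone genes, other ER unfolded protein response genes, the 83 genes and all 19260 genes, with metronidazole arrays in red and control arrays in blue. For the 7 cytosolic inducible genes the bars stand only at metronidazole replicate 1 (57.1%) and control replicate 3 (42.9%), while over all genes each array holds between 12% and 23.3%.

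Beyond the named families, 33 co-chaperones and other heat shock response genes gave 17 differences above 0 and 16 below, with a median of 0.00. At an unadjusted p under 0.05, 2 of the 33 were lower and 0 higher, near the 4.27% and 1.68% of all genes. serpinh1b, a copy of the collagen chaperone Hsp47, lay at 3.61 to 4.03 in metronidazole arrays, against 4.20 to 4.74 in control arrays, a difference of -0.64 ± 0.20. Its signal was below the median transcript cluster. st13 (Hip), which steadies Hsp70 on its client, had 7.82, 7.93 and 7.93 in metronidazole arrays, against 8.43, 8.38 and 8.14 in control arrays, a difference of -0.42 ± 0.14. The groups did not overlap for either gene, as for 5.73% of all genes in this direction, and their adjusted p was 0.952. The gene with the next lowest p was ahsa1b, an activator of the Hsp90 ATPase, at 0.31 ± 0.16. Genes picked after their values were seen, for their highest array, were bag3, which pairs Hsp70 with small heat shock proteins, and the autophagy receptor sqstm1, at 9.51 and 10.32 in metronidazole replicate 1 and at 7.84 to 8.47 and 8.58 to 9.41 in the other 5 arrays. Of the 33 genes, 8 were highest in metronidazole replicate 1 and 11 in control replicate 3, fkbp4 (9.10) among the latter. The shares of all genes highest in these 2 arrays were 23.3% and 19.2%. The largest difference of the list was that of fkbp5, at 1.22 ± 0.73 (limma adjusted p = 0.952). It was 0.34 without control replicate 3, in which fkbp5 was lowest (7.46).

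The chaperonin TRiC, a ring of 8 related subunits that folds actin and tubulin, gave 8 of 8 differences above 0, with a median of 0.17. Of all genes, 53.5% were above 0, with a median of 0.02. In limma, 0 of the 8 passed an unadjusted p of 0.05, and their shared direction was not tested. cct6a had 10.00, 10.08 and 9.91 in metronidazole arrays, against 9.88, 9.58 and 9.77 in control arrays, with a difference of 0.25 ± 0.14. The groups did not overlap for 3 of the 8 (cct6a, cct3 and tcp1), against 5.14% of all genes in this direction. Metronidazole replicate 2 held the highest signal of 7 of the 8 subunits, and the share of all genes with their highest signal there was 15.2%.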

How the data were processed

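Log2 signals of 75212 transcript clusters on 6 arrays were deposited by the authors. The arrays had been summarized and scaled before deposit, by a procedure not given in the sources used here. The labels name MAS5 without its role. Such steps can alter the differences of dim genes, and how they did so here is not known. Background values were not analysed here.

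Symbols came from the platform table, in which 20806 clusters carried 1 symbol. A gene was read from its brightest cluster (by the mean of the 6 arrays), which gave 19260 genes. Of the 83 chaperone genes, 9 had several clusters, and 10 further chaperone clusters carried several symbols. All 83 Entrez IDs matched a current RefSeq symbol. The members, roles and lists were chosen with earlier results of these data known. Roles came from general knowledge.

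Groups were compared with limma (version 3.58.1, under R 4.3.3). A linear model with empirical Bayes variances was fitted to all clusters (two-sided, 4 residual and 2.69 prior degrees of freedom), and p-values were adjusted by Benjamini-Hochberg over all of them. The SE printed is the moderated one. Python 3.11.15 served for the tables (pandas 2.3.3) and the figures (matplotlib 3.10.9). Genes planned for naming were all members of the cytosolic inducible, ER chaperone, mitochondrial and heat shock factor roles, and the 4 with the lowest p of each other role. The 6 with the largest difference in each direction and the 3 with the lowest p of each further list were added. Not all of these were described: hspb3, hspb8, hspb15, hspa8b, hspa4b, hspa14, hspbap1, hspa13, dnajc16, dnajc15, dnajc19 and cct4 were left out. Other names (among them dnajb1b, hspb9l, dnajc3b, dnajb9b, hsp90ab1, hspa8, tcp1 and the hsp70 clusters) were chosen after their values were seen.

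The paper states 3 batches of larvae. Deviations from the group means correlated at 0.241, 0.148 and 0.127 between arrays of the same replicate number and at -0.171 to 0.0506 between others, part of which is built in because deviations sum to 0 within a group. The number was taken as the batch, which the labels do not state. The alternatives were quantile normalization, median centring, clusters above the median only, a replicate block, each array left out, an intensity trend, array weights, the methods' t-test, ratios of linear means, and the mean or the most variable of a gene's clusters.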

Additional observations from a re-analysis of the deposited data

How the results depend on the processing

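No alternative gave a chaperone gene an adjusted p under 0.05. Of 249 planned values for counts and role medians, 223 stayed within the set limits and 26 moved. With the replicate block, 3 genes were lower and 3 higher at an unadjusted p under 0.05, against 1 and 0 without it. Array weights gave 4 lower and 1 higher, and the methods' t-test 1 higher. The count of higher genes without overlap was 1, against 2, with quantile normalization, median centring or clusters above the median only, and that of lower genes was 3, against 2, with the first pair of these. The median of the heat shock factors was 0.32, against 0.03, when the 2 dim genes hsf5 and hsf2bp dropped out with the last of these. With each array left out in turn, 1 to 3 genes were lower and 0 to 5 higher at an unadjusted p under 0.05, and 2 to 9 lower and 3 to 13 higher without overlap, which fewer arrays make more frequent by construction. The medians then ran over -0.02 to 0.10 for the other DnaJ genes, -0.01 to 0.11 for the heat shock factors, -0.78 to -0.21 for the ER chaperones, -0.04 to 0.18 for the cytosolic inducible genes, -0.43 to 0.22 for the mitochondrial chaperones and -0.10 to 0.25 for the cytosolic stress DnaJ genes. Of 50 chaperone genes planned for naming, 15 changed sign under some setting, hsp90aa1.1, hsp90aa1.2, hspd1, hsph1 and dnaja1 among them, all within 1 SD. Taking hspb9l for hspb11, an alternative chosen after seeing the data, kept the cytosolic median within the same limits. The marker and pathway lists without single arrays were also added after seeing the data.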
